A study of Mus musculus with 28 samples.

Results

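The transcripts of 9 epidermal keratins, Krt5, Krt14, Krt15, Krt1, Krt10, Krt2, Krt77, Krt78 and Krt19, were followed in skin of a healing wound. They were listed by name, for the epidermal layer each is known from and with earlier results of these data known, and all 9 were found among the 29068 gene symbols of the count table, which holds 54 keratin genes. The mice were wild type, called MLKL+/+ in the study and C57BL/6J in the labels, of both sexes and 8 weeks old, and healed without any treatment. Wounds were made in shaved back skin with a punch, and bulk tissue of the wound and its edge was taken at the later days, so that each library mixes many cell types. RNA was sequenced at 7 time points, days 0, 3, 5, 7, 10, 12 and 14, with 4 libraries each and 28 in all. Day 0 is the control group of the design. The study lists day 1 in its place and, in its legends, takes day 1 as the day of wounding, and whether the labelled day 0 is that day is not stated. Whether the day 0 tissue was intact skin or a fresh wound is not stated either, and its treatment label is that of the later days, so all fold changes are against day 0 as labelled. The labels do not tie the libraries to separate animals, so the p-values measure the spread between these libraries.

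Keratins form the intermediate filaments of epithelial cells. A filament needs a type I and a type II keratin in equal amounts, and the pairs change as a keratinocyte moves upwards. Basal cells make KRT5 with KRT14, and KRT15 is a further type I keratin of basal cells and of the hair follicle bulge, where follicle stem cells sit. Cells that leave the basal layer switch to KRT1 with KRT10. KRT77 and KRT78 are type II keratins of the suprabasal layers, KRT2 belongs to the upper spinous and granular layers, and KRT19 is a small type I keratin of the bulge and outer root sheath and of simple epithelia. In a wound, keratinocytes at the margin turn on KRT6, KRT16 and KRT17 and crawl over the bed before they form layers again.

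The 5 type II genes (Krt5, Krt1, Krt2, Krt77 and Krt78) lie on chromosome 15 and the 4 type I genes (Krt14, Krt15, Krt10 and Krt19) on chromosome 11 of mm10, all on the minus strand (GENCODE M21). The basal gene Krt5 spans chr15:101707070-101712898 and the suprabasal gene Krt1 spans chr15:101845426-101850794, each with 9 exons. On chromosome 11, Krt14 spans chr11:100203162-100207548, Krt15 chr11:100131758-100135928 and Krt10 chr11:99385254-99389364, each with 8 exons. RefSeq promoter windows (GRCm38.p6, the same assembly as mm10) were matched for 6 of the 9 genes. The following 5 windows, whose start lies within a few bases of the annotated gene end, are given because they belong to a basal keratin that had its lowest mean at day 5 (Krt5), 3 suprabasal keratins that were called lower at both days 3 and 14 (Krt10, Krt77 and Krt78) and a rare keratin whose own level peaked on day 14 (Krt2). Each line gives the 150 bases before the start, with TATA-like letters in capitals.
Krt5, chr15:101712906-101713055, minus strand: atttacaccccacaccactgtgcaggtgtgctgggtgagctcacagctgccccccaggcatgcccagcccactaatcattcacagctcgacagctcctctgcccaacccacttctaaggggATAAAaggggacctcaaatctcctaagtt
Krt2, chr15:101818170-101818319, minus strand: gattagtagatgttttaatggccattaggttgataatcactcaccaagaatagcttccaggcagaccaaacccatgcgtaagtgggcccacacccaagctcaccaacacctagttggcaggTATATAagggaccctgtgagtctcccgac
Krt77, chr15:101869706-101869855, minus strand: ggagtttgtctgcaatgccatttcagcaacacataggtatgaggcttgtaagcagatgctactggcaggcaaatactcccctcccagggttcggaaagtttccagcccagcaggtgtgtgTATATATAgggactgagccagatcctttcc
Krt78, chr15:101954288-101954437, minus strand: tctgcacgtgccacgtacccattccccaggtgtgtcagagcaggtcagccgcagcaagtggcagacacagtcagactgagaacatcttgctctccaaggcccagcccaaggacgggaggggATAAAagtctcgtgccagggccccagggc
Krt10, chr11:99389365-99389514, minus strand: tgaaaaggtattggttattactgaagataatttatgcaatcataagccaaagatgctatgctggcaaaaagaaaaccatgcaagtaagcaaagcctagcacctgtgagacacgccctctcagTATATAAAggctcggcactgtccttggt
All 5 held ATAAA or TATATA with its first base 40 to 15 bases before the start, letters chosen after the sequences were seen. Of 32851 promoters, 5.49% held them there. The start of the Krt14 window lies 1518 bases inside the annotated gene, so this window is not comparable with the other 5, though it is among the 6 in the next counts. TGANTCA (AP-1) and GCCNNNGGC (AP-2), searched on both strands of the 300-base windows, matched 0 of the 6 windows, against 7.81% and 16.6% of all promoters, and CACCC (KLF) matched 4 of 6 against 57.5%. Krt2 and Krt77, both called lower at day 3 and called in opposite directions on day 14, both held the TATA-like letters. Since the letters were chosen from these windows, nothing about the courses follows from this.

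Each library held between 36706513 and 40655764 counted reads. The 9 keratins took a median of 0.841% of all counts on day 0, 0.386% on day 3 and 0.712% on day 12. Read numbers were high for most of them (3168 to 113506 counts per library for Krt5, Krt14, Krt15, Krt1, Krt10 and Krt77), lower for Krt78 (276 to 1814) and lowest for Krt19 (26 to 173) and Krt2 (0 to 150). The control day was the most variable. The biological coefficient of variation over all genes was 26.4% among the day 0 libraries and 5.70% to 10.8% within the later days, and the fit pools each gene's dispersion over the days, so that its standard errors understate the spread of day 0. Markers of other tissues moved with this spread. The summed level of 12 skeletal muscle genes was 43178, 26123, 26585 and 46523 CPM (counts scaled to the library size) in day 0 replicates 1 to 4, and that of 10 matrix fibroblast genes was 26482, 58569, 56314 and 15318 CPM. In this bulk tissue, fewer keratinocytes and less keratin RNA per keratinocyte cannot be told apart. The summed level of 18 basal layer genes was 3263 to 4988 CPM in the day 0 libraries. This sum was lowest at day 3 (2797 to 3004 CPM) and highest at day 10 (7993 to 8458 CPM). At day 10 the median log2 fold change of these 18 genes was -0.27 and that of Postn, the highest, was 4.00. The sum is therefore not a level of basal keratinocytes. The summed level of 18 spinous layer genes was 7092 to 7594 CPM at day 0 and at its lowest 3546 to 4025 CPM at day 10.

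**Figure D1:**
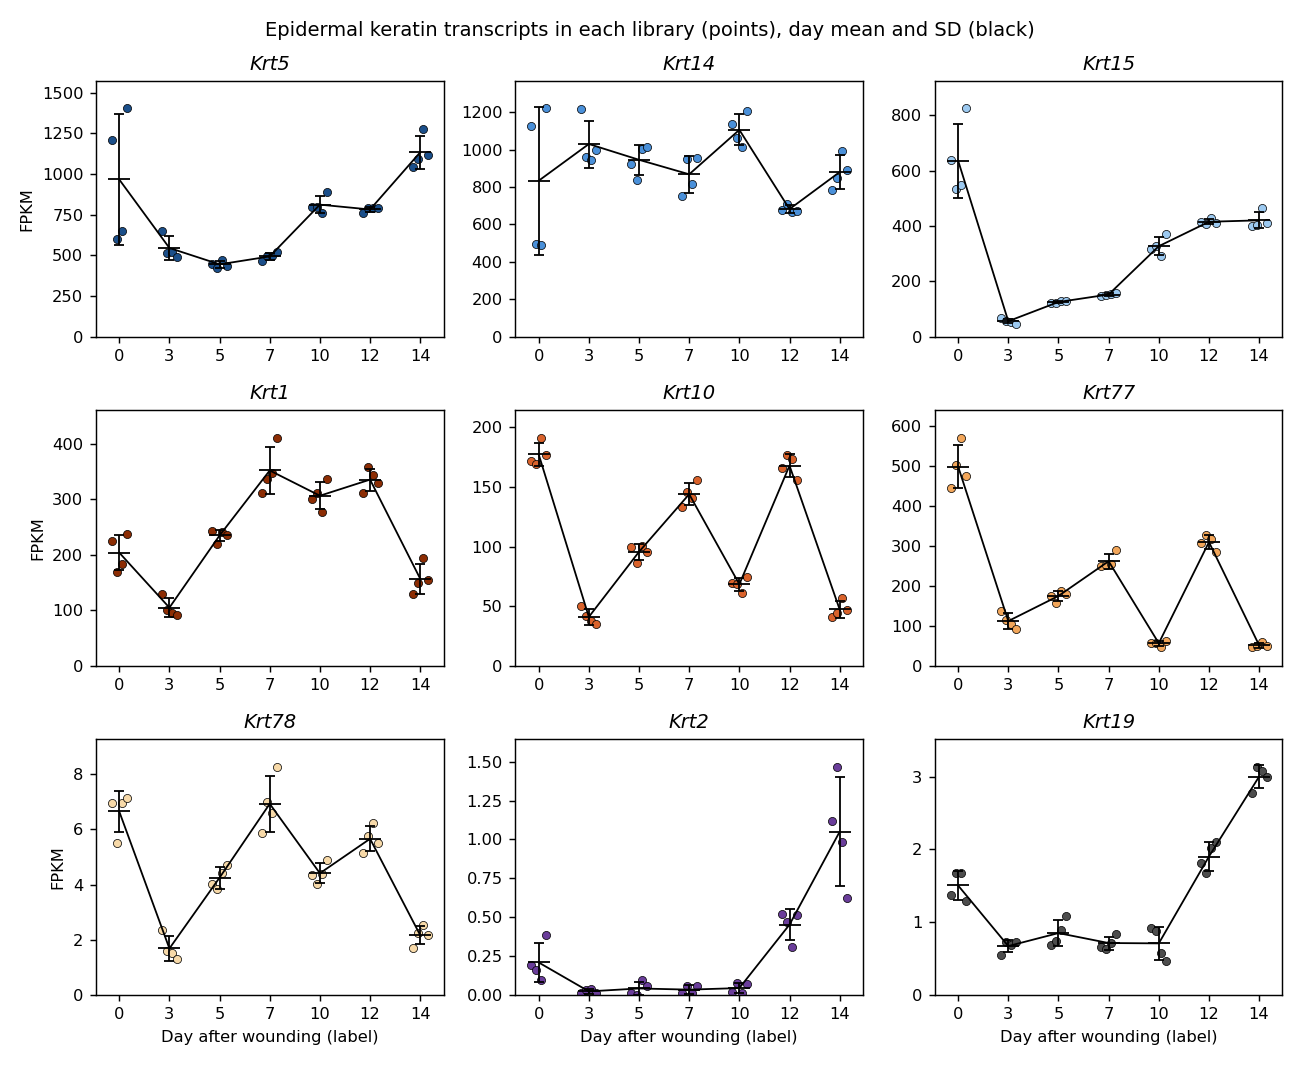
FPKM of each keratin (vertical axes, from 0) by labelled day (horizontal axes). Points are the 4 libraries of a day, black lines the day mean and SD. Krt15 ran from 534 to 825 on day 0 and from 47.2 to 66.2 on day 3, while Krt14 on day 0 (490 to 1221) spread beyond the range of all later days (664 to 1216).

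Between genes, levels were compared as FPKM recomputed with the length of the longest coding transcript, since the length behind the deposited FPKM of Krt10 (10555 bases) was 5.04 times that of its longest coding transcript and that of Krt78 was 1.60 times. The length used for Krt10 exceeds its whole annotated gene (chr11:99385254-99389364), so that model reaches outside this gene. The length used for Krt78 (5503 bases) is below that of its annotated gene (chr15:101946001-101954287). Which bases the 2 models cover is not given in the sources used here, so the counts of both genes may include reads of neighbouring sequence. On this scale the most abundant keratins of day 0 were Krt5 (mean 969, range 604 to 1407), Krt10 (894, 854 to 966) and Krt14 (845, 496 to 1237), whose ranges overlapped. Krt15 (644) and Krt77 (498) followed, each overlapping the one before, and Krt1 (203, range 169 to 237) was separate below them. Krt78 stood at 10.7, Krt19 at 1.35 and Krt2 at 0.210, each without overlap with the one above. On day 3 the order became Krt14 (1044, range 959 to 1232), Krt5 (547, 493 to 652), Krt10 (206) and then Krt77 and Krt1 (112 and 104, overlapping), while Krt15 had dropped below both to 56.3. On day 12 Krt10 (847, range 784 to 893) and Krt5 (784, 761 to 793) overlapped at the top with Krt14 (691, 673 to 721) below them. On day 14 the 3 basal keratins led, Krt5 (1137, range 1046 to 1282), Krt14 (892, 793 to 1009) and Krt15 (425, 406 to 469), each separate from the next.

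Each later day was compared with day 0 with edgeR's quasi-likelihood test on the counts, and a gene was called when its p adjusted by Benjamini and Hochberg over the 18107 genes tested was under 0.05. All 9 keratins had enough counts to be tested. Most keratins were lower at day 3 than at day 0. On day 3, 8 of 9 were called lower and 0 higher, where 34.8% of all genes were called lower and 31.8% higher. The exception was Krt14, the type I keratin of basal cells, which was not called on any of the 6 days. Day 5 had 7 lower and 0 higher (30.6% and 29% of all genes). Day 7 had 6 lower (24.8% of all genes) and 1 higher (25.6%), and so had day 10 (26.9% and 23.5%), Krt1 being the higher one each time. Day 12 had 4 lower, Krt5, Krt15, Krt77 and Krt78 (25.6% of all genes), and again Krt1 higher (21.7%). Day 14 had 5 lower, Krt15, Krt1, Krt10, Krt77 and Krt78 (34.5% of all genes), and 2 higher, Krt2 and Krt19 (28.2%). The median log2 fold change of the 9 genes at days 3, 5, 7, 10, 12 and 14 was -1.93, -0.85, -0.93, -1.02, -0.38 and -0.50, while that of all genes tested stayed between -0.056 and 0.0024. The scaling between libraries itself keeps the median of all genes near 0, so it is the reference of these values and not a separate result. All 6 comparisons share the day 0 libraries.

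By the larger change that the study asked for (over 1.5 on the log2 scale in either direction, with p under 0.05 before adjustment), 5, 2, 2, 2, 0 and 3 keratins were lower on these 6 days, and the shares of all genes were 12.4%, 8.31%, 4.74%, 5.14%, 3.51% and 8.83%. Only Krt2 on day 14 was higher by these criteria, which 6.5%, 5.61%, 4.66%, 4.33%, 3.89% and 5.15% of all genes met. From each sampled day to the next, 5 keratins rose and 0 fell up to day 5 (12.9% and 11.4% of all genes), and 4 rose and 0 fell up to day 7 (13.9% and 14.6%). Up to day 10, 2 rose and 3 fell (14.3% and 18%), up to day 12, 5 rose and 1 fell (18.7% and 20.7%), and up to day 14, 3 rose and 4 fell (19.9% and 25.3%). The joint test of days 3 to 14 being equal, which leaves day 0 out of the contrast, was passed by all 9 keratins and by 85.1% of all genes (edgeR, Benjamini-Hochberg). Complete separation of 4 libraries from the 4 of day 0 by log2 CPM was found above day 0 for 28.2%, 23%, 19.9%, 19.5%, 18.6% and 23.4% of all genes on the 6 days, and below day 0 for 28.6%, 23.2%, 19.3%, 21.9%, 20.2% and 27.3%. For single keratins separation is given in the following mostly by FPKM or counts. It was the same by FPKM, counts and log2 CPM in 52 of the 54 comparisons of a keratin and a day with day 0, the exceptions being Krt10 at day 12 and Krt2 at day 5.

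**Figure D2:**
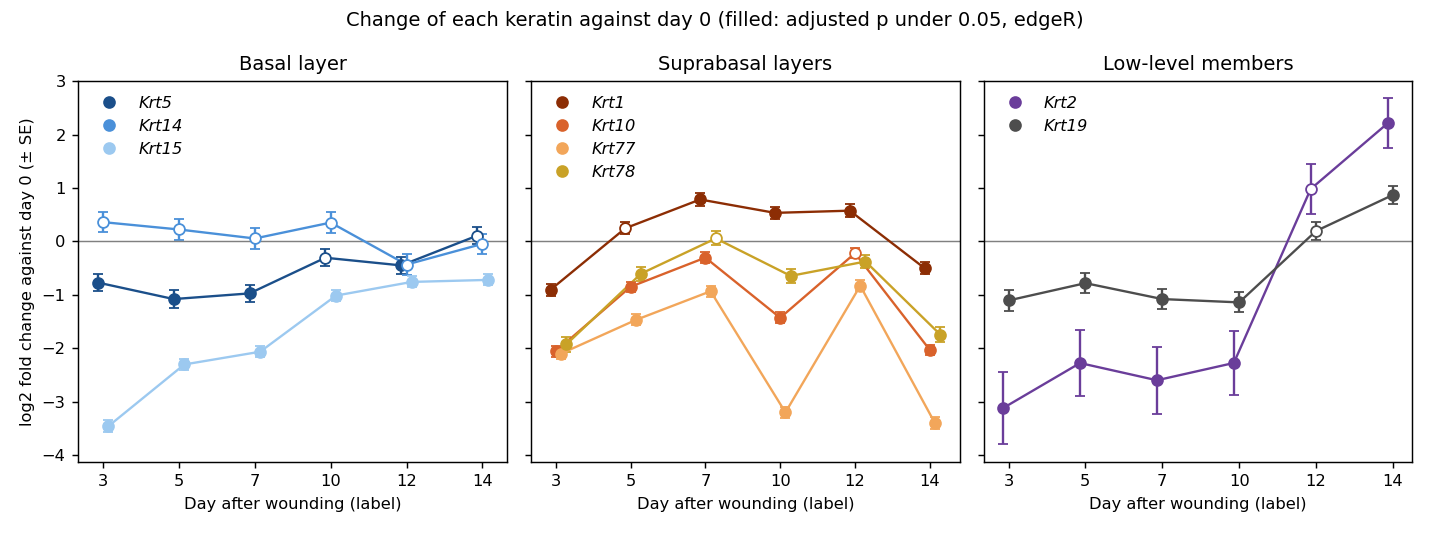
Fitted log2 fold change of each keratin against day 0 (vertical axis) by labelled day (horizontal axis), error bars are the standard error and filled points have an adjusted p under 0.05. Krt15 climbs from -3.46 to -0.72, Krt77 and Krt10 dip again on days 10 and 14, and Krt2 and Krt19 lie above 0 at days 12 and 14.

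The basal pair Krt5 and Krt14 parted at days 3, 5, 7 and 10. Krt5, the type II partner, had its lowest mean at day 5 and lay within the day 0 range from day 10 on, while Krt14 was not called on any day. The FPKM of Krt5 was 1206, 602, 652 and 1402 in day 0 replicates 1 to 4, 650, 516, 522 and 491 in those of day 3, and 446, 421, 472 and 436 in those of day 5. Day 5 lay wholly below day 0, and only replicate 1 of day 3 reached into the day 0 range. At day 10 the values were 762 to 888 and at day 12 they were 758 to 790, all inside the day 0 range. At day 14 they were 1042, 1094, 1277 and 1118. Against day 0, the log2 fold change of Krt5 was -0.77 ± 0.16 at day 3 (SE, adjusted p = 1.7e-04, edgeR), -1.08 ± 0.16 at day 5 (adjusted p = 2.3e-06) and -0.98 ± 0.16 at day 7 (adjusted p = 1.5e-05). Later values were -0.31 at day 10 (adjusted p = 0.12), -0.45 at day 12 (adjusted p = 0.024) and 0.11 at day 14 (adjusted p = 0.59). An exact permutation test of the log2 CPM values, two-sided with 4 libraries against 4, gave p = 0.086 for day 3, 0.0286 for days 5 and 7, the smallest it can give, and 0.43 for day 12. With 1 library left out, the log2 fold change of day 3 ran from -0.94 to -0.49 and stayed called. The call of day 12 was lost without day 0 replicate 1 (-0.30, adjusted p = 0.13) or replicate 4 (-0.20, adjusted p = 0.26), and also with library totals as the scaling (-0.31, adjusted p = 0.12), in the fit of the 8 libraries alone (adjusted p = 0.19) and in limma on log2(FPKM + 1) (-0.21, adjusted p = 0.32). Krt5 was called lower at day 10 without day 0 replicate 2 (-0.48, adjusted p = 0.0069) or replicate 3 (-0.46, adjusted p = 0.015), and higher at day 14 without replicate 4 (0.42, adjusted p = 0.013).

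Krt14 was at 1129, 497, 490 and 1221 FPKM on day 0 and at 1216, 961, 947 and 998 on day 3. Replicates 1 and 4 of day 0 were high and replicates 2 and 3 low for both Krt5 and Krt14, and the same replicates 1 and 4 were high in the muscle list and low in the matrix list, whose part in these results was not tested. The day 3 values lay within the range of day 0. The log2 fold change of Krt14 was 0.36 ± 0.19 at day 3 (SE, adjusted p = 0.099, edgeR), 0.22 at day 5, 0.053 at day 7 and 0.35 at day 10 (adjusted p = 0.13). At days 12 and 14 it was -0.44 (adjusted p = 0.063) and -0.048 (adjusted p = 0.84). Without day 0 replicate 1, Krt14 was called higher for day 3 (0.59, adjusted p = 0.0076) and day 10 (0.54, adjusted p = 0.020). Without replicate 4 it was called higher for days 3, 5 and 10 (0.65, 0.47 and 0.59, adjusted p = 0.0025, 0.025 and 0.0073), and without replicate 2 or 3 it was called lower for day 12 (-0.61 and -0.62, adjusted p = 0.0050 and 0.0042). limma on log2(FPKM + 1) called it higher for day 10 (0.54, adjusted p = 0.028). Whether Krt14 differed from day 0 thus turned on which day 0 libraries were used. Between later days, its mean FPKM went from 1106 at day 10 to 682 at day 12, and it fell by 0.79 ± 0.19 on the log2 scale (adjusted p = 0.0016, edgeR), the one step between sampled days that was called.

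Krt15, the keratin shared by basal and bulge cells, fell at day 3 and was higher again at later days. Its FPKM was 638, 534, 547 and 825 in the day 0 libraries and 66.2, 57.0, 52.2 and 47.2 in those of day 3, an 11.01-fold lower fitted level. It rose to 121 to 129 at day 5, 146 to 157 at day 7, 291 to 369 at day 10, 406 to 427 at day 12 and 401 to 463 at day 14. Every library of every later day lay below every library of day 0 (exact permutation p = 0.0286 for each day). The log2 fold change was -3.46 ± 0.11 at day 3 (SE, adjusted p = 6.5e-20, edgeR), then -2.31, -2.07, -1.02 and -0.76 at days 5, 7, 10 and 12, and -0.72 ± 0.10 at day 14 (adjusted p = 6.5e-07). Steps upwards were called between days 3 and 5 (1.15 ± 0.10), 7 and 10 (1.05 ± 0.10), and 10 and 12 (0.26 ± 0.10, adjusted p = 0.047, edgeR). Between days 12 and 14 the difference was 0.037 ± 0.10 (adjusted p = 0.79).

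Krt1 was the one keratin called above its day 0 level in the middle of the course. Its FPKM was 224, 169, 184 and 237 in the day 0 libraries, 130, 101, 95.7 and 92.2 at day 3, and 311, 336, 348 and 411 at day 7. All day 3 libraries lay below and all day 7 libraries above those of day 0. At day 14 it was back to 130, 149, 194 and 154, with only replicate 3 inside the day 0 range. Its log2 fold change was -0.91 ± 0.12 at day 3 (SE, adjusted p = 1.3e-07, edgeR), 0.24 ± 0.12 at day 5 (adjusted p = 0.072) and 0.78 ± 0.12 at day 7 (adjusted p = 2.6e-06). It was 0.53 at day 10 (adjusted p = 3.9e-04), 0.57 at day 12 (adjusted p = 2.0e-04) and -0.50 ± 0.12 at day 14 (adjusted p = 4.9e-04, exact permutation p = 0.086). The day 5 difference was called without day 0 replicate 1 (0.31, adjusted p = 0.032) or replicate 4 (0.34, adjusted p = 0.017).

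Krt10, the type I partner of Krt1, fell and rose repeatedly. Its FPKM was 172, 169, 192 and 177 in the day 0 libraries and 50.3, 41.5, 37.3 and 34.7 in those of day 3. It climbed to between 134 and 156 at day 7, dropped to between 60.7 and 74.2 at day 10, stood at 166, 177, 174 and 156 at day 12 and ended at 40.6, 44.2, 57.0 and 47.0. The range of day 14 overlapped that of day 3. Against day 0 the log2 fold change was -2.06 ± 0.10 at day 3 (SE, adjusted p = 4.3e-16, edgeR), -0.85 at day 5, -0.31 at day 7 (adjusted p = 0.011) and -1.43 at day 10 (adjusted p = 2.7e-12). At day 12 it was -0.22 ± 0.097 (adjusted p = 0.061) and at day 14 it was -2.03 ± 0.10 (adjusted p = 2.0e-15). The day 12 difference was called by DESeq2 (adjusted p = 0.047), in the fit of the 8 libraries (0.038) and with at least 10 counts in every library (0.046), and was -0.079 with library totals as the scaling (adjusted p = 0.52). On the log2 CPM scale all 4 libraries of day 12 were below those of day 0 (exact permutation p = 0.0286), while on the FPKM scale the ranges overlapped. The steps into days 5, 7, 10, 12 and 14 were 1.21, 0.55, -1.13, 1.21 and -1.81, all called.

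Krt77, a type II keratin of the suprabasal layers, fell, rose, fell, rose and fell at the same days as Krt10, and its steps into days 10, 12 and 14 were the wider ones. It was at 444, 503, 571 and 475 FPKM in the day 0 libraries, 138, 114, 103 and 91.5 at day 3, and between 250 and 289 at day 7. It was at 57.9, 57.7, 46.8 and 62.4 at day 10, at 306, 328, 317 and 285 at day 12, and at 45.7, 49.6, 59.0 and 50.03 at day 14. Days 10 and 14 overlapped each other, and both were far below day 12, which lies between them in time. Against day 0 the log2 fold change was -2.10, -1.47 and -0.93 for days 3, 5 and 7 and -0.83 for day 12. It was -3.203 ± 0.11 at day 10 (SE, adjusted p = 2.0e-18, edgeR), 9.21-fold lower, and -3.41 ± 0.11 at day 14 (adjusted p = 7.6e-19), 10.6-fold lower. Its last steps were -2.27 ± 0.11 into day 10, 2.37 ± 0.11 into day 12 and -2.58 ± 0.11 into day 14 (adjusted p of 1.6e-14, 1.9e-15 and 6.3e-16, edgeR).

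Krt78, another type II keratin of the suprabasal layers, was the least abundant of them besides Krt2. Its course was like that of Krt10 but for the step into day 12, which was 1.21 for Krt10. For Krt78 this step was 0.27 and not called (adjusted p = 0.11, edgeR). The FPKM of Krt78 was 6.96, 5.52, 6.98 and 7.16 in the day 0 libraries, 2.34, 1.60, 1.501 and 1.29 at day 3, and 5.88 to 8.28 at day 7. Day 7 overlapped day 0. The day 14 values of 1.71, 2.23, 2.52 and 2.19 were again wholly below. Its log2 fold change was -1.93 ± 0.14 at day 3 (SE, adjusted p = 1.3e-12, edgeR), -0.60 at day 5, 0.055 at day 7 (adjusted p = 0.75) and -0.65 at day 10. At day 12 it was -0.38 (adjusted p = 0.019) and at day 14 it was -1.75 ± 0.14 (adjusted p = 1.4e-11). The call of day 12 was lost without day 0 replicate 1 (adjusted p = 0.051), day 0 replicate 4 (0.057) or day 12 replicate 1 (0.054), with library totals (-0.23, adjusted p = 0.15) and in limma (-0.20, adjusted p = 0.13), and its exact permutation p was 0.057.

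Krt2 and Krt19 were rare throughout and highest at day 14. Krt2, the keratin of the upper layers, had 20, 17, 10 and 37 counts in the day 0 libraries, 1, 3, 4 and 1 in those of day 3, and 0 to 10 at days 5, 7 and 10. At day 12 it had 55, 50, 33 and 54 counts and at day 14 it had 115, 150, 103 and 63. All day 14 libraries were above all of day 0, and those of day 12 were above day 0 except replicate 3. Such low counts leave large errors, and the one library at 0 (day 5 replicate 2) allows up to 3 counts, with counting error alone considered. The log2 fold change was -3.12 ± 0.68 at day 3 (SE, adjusted p = 2.4e-04, edgeR), then -2.28, -2.60 and -2.28 at days 5, 7 and 10, 0.98 ± 0.47 at day 12 (adjusted p = 0.091) and 2.21 ± 0.47 at day 14 (adjusted p = 1.8e-04), 4.62-fold higher. The day 12 difference was called without day 0 replicate 4 (1.46, adjusted p = 0.020) and in limma on log2(FPKM + 0.1) (0.90, adjusted p = 0.0055). Without day 5 replicate 3, which had 10 counts, the day 5 value was -3.09 (adjusted p = 6.5e-04, edgeR). limma on log2(FPKM + 1), a scale that understates changes of so rare a gene, gave -0.24 at day 3 and 0.75 at day 14, both called. The exact permutation p was 0.057 for days 5 and 12. The step into day 12 was 3.26 ± 0.58 (adjusted p = 4.5e-05, edgeR) and that into day 14 was 1.23 ± 0.44 (adjusted p = 0.024).

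Krt19, the keratin of bulge and simple epithelia, had 76, 96, 93 and 67 counts in the day 0 libraries, 30, 40, 38 and 40 in those of day 3, and 26 to 60 at days 5, 7 and 10. It reached 103, 96, 116 and 119 at day 12 and 153, 172, 173 and 163 at day 14. The day 3 libraries lay wholly below and the day 14 libraries wholly above those of day 0. Its log2 fold change was -1.11 ± 0.19 at day 3 (SE, adjusted p = 9.4e-06, edgeR), then -0.78, -1.08 and -1.14 at days 5, 7 and 10, 0.19 at day 12 (adjusted p = 0.38) and 0.87 ± 0.17 at day 14 (adjusted p = 8.7e-05), 1.83-fold higher. limma on log2(FPKM + 1) called the day 12 difference (0.21, adjusted p = 0.028). The steps into days 12 and 14 were 1.34 ± 0.19 (adjusted p = 1.3e-06, edgeR) and 0.68 ± 0.17 (adjusted p = 0.0021).

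Ratios within a library do not depend on the scaling between libraries. For 8 pairs and 6 days, 48 exact permutation tests of the log2 ratio against day 0, two-sided, were made. Of these, 38 gave the smallest possible p of 0.0286 (adjusted p = 0.036 over the 48) with groups that did not overlap. The pairs share genes and all tests share the day 0 libraries, so the 48 are not independent. How often ratios of other gene pairs separate was not counted. Among single genes separation was common (28.2% above and 28.6% below day 0 at day 3, by log2 CPM). The basal type II keratin lost ground to its partner, the log2 ratio Krt5/Krt14 differing from day 0 by -1.17, -1.33, -1.06 and -0.69 at days 3, 5, 7 and 10, all without overlap. Per coding length, Krt5 stood at 1.06 to 1.32 times Krt14 in the day 0 libraries, at 0.425 to 0.497 times at day 5 and at 1.24 to 1.32 times at day 14. At days 12 and 14 the log2 ratio differed from day 0 by -0.050 and 0.12 (adjusted p = 0.58 and 0.21, exact permutation). Krt5 spread 2.32-fold among the day 0 libraries, and the SD of its log2 level was 0.62, while the SD of the log2 ratio to Krt14 was 0.13.

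In the suprabasal pair the type II member gained. The log2 ratio Krt1/Krt10 was above day 0 at days 3, 5, 7, 10, 12 and 14, by 1.17, 1.11, 1.10, 1.98, 0.81 and 1.54 (adjusted p = 0.036 each, exact permutation). Per coding length, Krt1 was at 0.190 to 0.266 times Krt10 in the day 0 libraries and at 0.857 to 0.902 times at day 10. The fixed gene length cancels between days. Whether the Krt10 counts hold reads of neighbouring sequence, which would not cancel, was not tested. Krt77/Krt1, a ratio of type II suprabasal keratins, differed by -1.21, -1.73, -1.72, -3.75, -1.41 and -2.90 on the 6 days, all without overlap. Krt10/Krt14, the type I ratio of suprabasal to basal keratin, differed by -2.56, -1.20, -1.92 and -2.13 at days 3, 5, 10 and 14, without overlap. Its differences of -0.49 at day 7 and 0.079 at day 12 did not pass (adjusted p = 0.45 and 0.74, exact permutation). Krt1/Krt5, the type II ratio, differed by -0.22 at day 3 (adjusted p = 0.44, exact permutation), by 1.24, 1.67, 0.76 and 0.94 at days 5, 7, 10 and 12, and by -0.71 at day 14. At days 5 and 10 the type I ratio was therefore below and the type II ratio above its day 0 value.

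Krt15/Krt14 differed by -3.93, -2.63, -2.22 and -1.48 at days 3, 5, 7 and 10 and by -0.78 at day 14, without overlap, and by -0.44 at day 12 (adjusted p = 0.23, exact permutation). Krt19/Krt14, which like Krt15 sets a bulge keratin against the common basal one, differed by -1.60, -1.26 and -1.67 at days 3, 7 and 10. Its differences of -1.15, 0.50 and 0.80 at days 5, 12 and 14 had adjusted p-values of 0.070, 0.45 and 0.26 (exact permutation). With 1 library left out, the day 12 difference ran from 0.20 to 0.77 and that of day 14 from 0.50 to 1.07. Krt2/Krt1, computed from counts + 1 because of the Krt2 count of 0, differed by -1.78, -2.75, -3.25 and -2.74 at days 3, 5, 7 and 10, by 0.49 at day 12 (adjusted p = 0.32, exact permutation) and by 2.76 at day 14, a 6.78-fold shift towards Krt2.

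**Figure D3:**
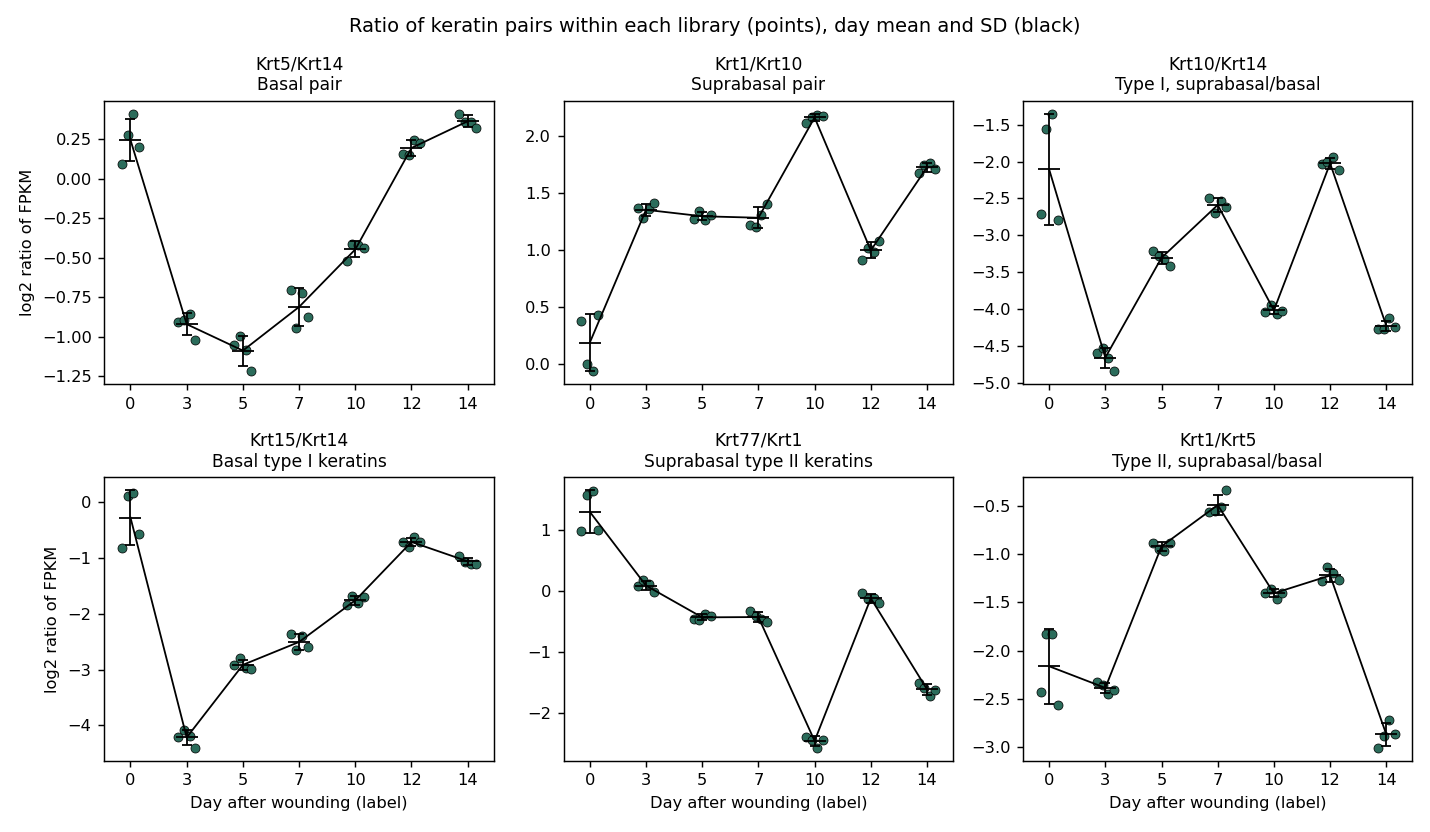
log2 ratio of FPKM (vertical axes) for 6 keratin pairs by labelled day (horizontal axes), with the 4 libraries as points and the day mean and SD in black. Krt5/Krt14 has its low at day 5 (-1.33 against day 0) and recovers, Krt1/Krt10 stays above day 0, and Krt77/Krt1 reaches its low on day 10. The FPKM of Krt10 uses a long gene model, so the height of its ratios is not to be read, and whether its counts hold reads of neighbouring sequence was not tested.

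The make-up of the keratin pool followed from these courses. Of the summed level per coding length of the 9 transcripts, the basal keratins Krt5, Krt14 and Krt15 held 58.9% ± 9.6 on day 0 (SD, n = 4 libraries, range 49.6% to 68.3%) and 79.5% ± 1.2 on day 3. The share was 63.0%, 53.1%, 76.1% and 55.8% at days 5, 7, 10 and 12 and 84.5% ± 0.78 at day 14. The libraries of days 3, 10 and 14 lay wholly above the day 0 range and those of days 5, 7 and 12 inside it. The level of the share depends on Krt10, whose counts may not all be its own, which was not tested. With the deposited FPKM the basal share was 71.7% ± 8.0 at day 0, 86.3% at day 3 and 90.4% at day 14, and per coding length with Krt10 left out it was 76.0% ± 7.2, 88.3% and 92.0%. Both of these scales, added after the data were seen, put the same days above and inside the day 0 range. Krt14 alone held 50.4% of the pool on day 3 and 19.9% on day 0, and Krt5 held 39.1% on day 14. Krt19 never held more than 0.101%.

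**Figure D4:**
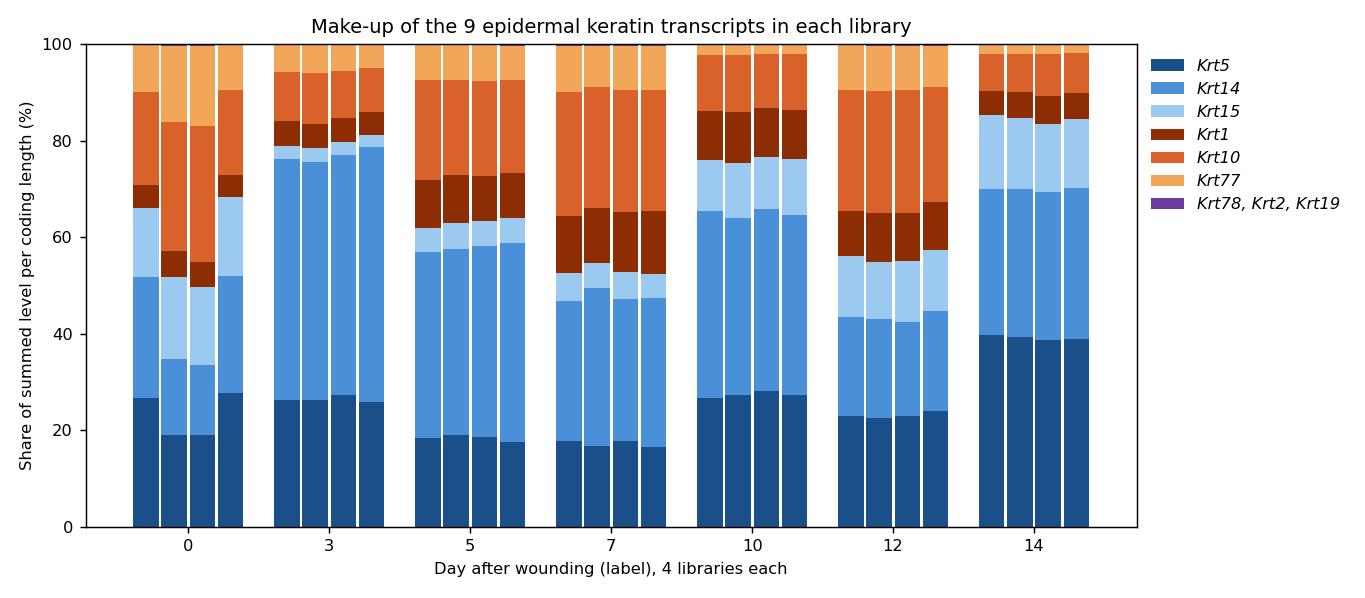
Share of each keratin in the summed level per coding length (vertical axis, %) in each library, 4 bars a day in replicate order (horizontal axis, labelled day). Blue parts are basal, red to yellow parts suprabasal. The basal part is 78.4% to 81.1% on day 3 and 83.4% to 85.3% on day 14, and day 0 differs most between its bars.

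Other genes of the same layers were counted from lists, without a test of the lists. The counts in this and the next paragraphs are to be read against 31.8% of all genes called higher and 34.8% lower at day 3, 25.6% and 24.8% at day 7, 23.5% and 26.9% at day 10, 21.7% and 25.6% at day 12, and 28.2% and 34.5% at day 14. Of 18 basal layer and hemidesmosome genes, 4 were higher and 11 lower on day 3 and 6 and 8 on day 14, the latter near the shares of all genes, with median log2 fold changes of -0.42 and -0.046. Igfbp3, a binding protein of insulin-like growth factors, fell most on day 3 (-2.90 ± 0.11, edgeR), and Cdh3, the P-cadherin of basal and hair matrix cells, rose most by day 14 (2.23 ± 0.14). Of 18 desmosome and spinous layer genes, 3 were higher and 13 lower at day 3, 1 and 14 at day 10, 4 and 3 at day 12 and 4 and 9 at day 14. Where Krt10 and Krt77 fell into day 10 and rose into day 12, 13 of these 18 fell in the first step (18% of all genes) and 15 rose in the second (18.7% of all genes). The median log2 fold change of this list was -0.82 at day 3 and -0.14 at day 14, against -0.032 and -0.056 for all genes tested. Calml3, a calmodulin-like protein of keratinocytes, fell most on day 3 (-1.99 ± 0.11), and Dmkn, a secreted protein of the suprabasal layers, fell most on day 14 (-2.27 ± 0.12). Fabp5, the epidermal fatty acid binding protein, rose by 0.78 on day 3 and 1.00 on day 14.

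Among 15 genes of keratinization and keratin handling, 4 were higher and 9 lower on day 3 and 6 and 8 on day 14. Tgm3, a transglutaminase that crosslinks the cornified envelope and hair, rose most on both days (2.08 ± 0.20 and 3.10 ± 0.21), and Flg2, a filaggrin-like protein of the cornified layer, fell most on both (-1.98 ± 0.18 and -2.62 ± 0.19, edgeR). Of 18 epidermal transcription factors, 2 were higher and 13 lower on day 3 and the counts were 13 and 2 on day 14. Klf4, a factor of suprabasal differentiation, was the lowest on day 14 (-1.22 ± 0.071) and Ovol1, a zinc finger factor of epidermal differentiation, the highest (1.34 ± 0.096), while Barx2 was lowest on day 3 (-2.30 ± 0.13) and Cebpb highest (1.73 ± 0.11). Of 18 epithelial surface and splicing genes, 3 were higher and 15 lower on day 3 and 13 and 2 on day 14. The tight junction gene Cldn1 fell most on day 3 (-1.80 ± 0.065), while the epithelial transcription factors Elf3 and Elf5 were highest on days 3 and 14 (2.04 ± 0.31 and 3.199 ± 0.27). At days 3 and 14 the medians were -0.86 and -0.28 for keratinization, -0.97 and 0.51 for the transcription factors and -1.09 and 0.76 for the epithelial surface genes.

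Genes of the hair follicle and sebaceous gland were counted in the same way. Of 14 bulge and outer root sheath genes, 1 was higher and 13 lower on day 3, with Lhx2, a stem cell factor of the bulge, lowest at -3.26 ± 0.10 and Runx1 highest at 1.24 ± 0.076. On day 14, 7 were higher and 6 lower, with Tbx1 at 2.06 ± 0.12 and Fgf18 at -2.12 ± 0.14. Of 20 hair shaft and inner root sheath keratins, 0 were higher and 19 lower at day 3, 5 and 0 at day 7, where the higher ones were at the share of all genes, 0 and 16 at day 10 and 20 and 0 at both days 12 and 14. Their summed level was 2374, 688, 682 and 383 CPM in day 0 replicates 1 to 4, 15.8 to 22.2 CPM at day 3, 1253 to 1746 CPM at day 7, 364 to 419 CPM at day 10 and 6881 to 9060 CPM at day 14, and its part in the course of Krt15, Krt19 and Krt2 was not tested. Krt35, a hair cortex keratin, rose most by day 14 (4.62 ± 0.37), and Krt72, an inner root sheath keratin, least (0.80 ± 0.22). Krt84 was the highest of this list at day 3 (-0.69, adjusted p = 0.14, edgeR) and Krt26 the lowest. The medians at days 3 and 14 were -1.35 and 0.18 for the bulge list, and 3.11 at day 14 for the hair keratins. Of 10 sebaceous gland genes, 2 were higher and 7 lower on day 3 and 2 and 6 on day 14, with medians of -1.01 and -0.39. Fasn was highest at day 3 (1.00) and Elovl3 at day 14 (0.39), while Awat2 was lowest at day 3 (-2.63) and Dgat2l6 at day 14 (-3.53). The summed sebaceous level was 6026 to 8749 CPM in the day 0 libraries, 10351 to 11841 CPM at day 3 and 7317 to 8883 CPM at day 14. At day 3 this sum was higher while 7 of the 10 genes were lower, so it did not follow most genes of the list.

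Other keratins set these courses in relief. Of the 45 other keratin genes, 42 were tested, and 3 were higher and 33 lower on day 3 and 31 higher and 5 lower on day 14, where Krt35 was the highest and Krt80 (-2.03) the lowest. These 42 include the 20 hair shaft and inner root sheath keratins counted above, of which 19 were lower on day 3 and 20 higher on day 14. They also include the wound edge and simple epithelial keratins counted next. The 3 higher on day 3 were wound edge keratins, out of 4 such genes, with Krt6b highest of all (6.43 ± 0.59, adjusted p = 1.6e-10, edgeR) and Krt17 lowest at 0.17 (adjusted p = 0.099), and Krt40, a hair keratin, was the lowest of the other keratins. Summed, the wound edge keratins went from 468 to 709 CPM on day 0 to 2454 to 2984 CPM on day 3. On day 14 Krt17 was at 1.77 ± 0.094 and Krt16 at 0.034 (adjusted p = 0.93, edgeR). Of 4 simple epithelial keratins, 0 were higher and 3 lower on day 3, where Krt8 was at -3.76 ± 0.52 and Krt20 at -0.94 (adjusted p = 0.050). By day 14, 2 were higher and 0 lower, with Krt18 at 3.03 ± 0.34 and Krt20 at 0.24 (adjusted p = 0.62). The medians at days 3 and 14 were 3.90 and 0.52 for the wound edge and -1.93 and 1.41 for the simple epithelial keratins. Neighbouring keratin genes resemble each other in sequence, and the counter is not given in the sources used here, so reads may have been split between copies such as Krt6a and Krt6b.

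Markers of other tissues changed across the same comparisons, and their part in the keratin values was not tested. All 12 skeletal muscle genes were lower on all 6 days, with medians of -2.58 at day 3 (Acta1 highest at -1.97, Pvalb lowest at -3.16) and -2.37 at day 14 (Myh1 -1.86, Actn3 -2.60). Their sum went from 26123 to 46523 CPM in the day 0 libraries to 5438 to 7006 CPM at day 3 and 6516 to 8192 CPM at day 14. All 13 leukocyte genes were higher at day 3 (S100a8 at 7.94 ± 0.39, Lyz2 at 1.11 ± 0.086) and 11 were lower at day 14 (Csf3r at -1.58, S100a8 at 0.37 with adjusted p = 0.35, edgeR). The medians at days 3 and 14 were 1.68 and -1.13 for leukocyte, -0.39 and -0.85 for matrix fibroblast and -0.11 and 0.20 for adipocyte genes. The leukocyte sum was 1864 to 2439 CPM in the day 0 libraries, 9657 to 10980 CPM at day 3 and 1044 to 1122 CPM at day 14. Of 10 matrix fibroblast genes, 2 were higher and 7 lower at day 3 (Pdgfra at 1.00, Col1a2 at -1.45) and 1 and 7 at day 14 (Mfap5 at 0.43, Dcn at -1.80), with sums of 15318 to 58569 CPM, 22987 to 25143 CPM and 17323 to 20713 CPM at days 0, 3 and 14. Of 9 adipocyte genes, 3 were higher and 4 lower at day 3 (Pck1 at 2.49, Lep at -1.25) and 5 and 1 at day 14 (Pck1 at 1.95, Cfd at -0.31), with sums of 5828 to 7267 CPM, 7876 to 9640 CPM and 9315 to 9693 CPM.

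The genes with the most similar course were taken as those with the highest Pearson r of log2 CPM over the 28 libraries, among 10729 other genes with a mean of at least 10 CPM. These values describe a time course shared by libraries of the same day. Krt77 was closest to another type II keratin, Krt80 (r = 0.98), whose own log2 fold change was -2.29, -0.66 and -2.03 at days 10, 12 and 14. Krt10 was closest to the late cornified envelope gene Lce1m (r = 0.97), Krt1 to its relative Lce1d (r = 0.94) and to Calm4 (r = 0.94), a calmodulin-like gene of the epidermis, and Krt78 to Serpina12 (r = 0.95), which was also the second closest to Krt10 (r = 0.97). Krt15 was closest to Tmem159, Aldh3b2 and Srd5a1 (r = 0.98 each). Krt19 was closest to Hopx (r = 0.92), a homeodomain gene of the bulge, and Krt2 to Tbc1d10a, Rab25 and the plakophilin gene Pkp3 (r = 0.93 each). Krt5 was closest to the serine synthesis gene Psat1 (r = 0.95) and Krt14 to the glutamine synthetase gene Glul (r = 0.90), with no other epidermal structural gene among the 3 nearest of either. Among the 9 keratins themselves, Krt10 and Krt78 were most alike (r = 0.93), then Krt2 and Krt19 (r = 0.89) and Krt10 and Krt77 (r = 0.88), whereas the filament partners Krt1 and Krt10 were at 0.71 and Krt5 and Krt14 at 0.087.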

How the data were processed

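RNA of 28 skin libraries (7 days, 4 libraries each) was analysed. The deposited raw counts per gene symbol and FPKM values were made by the authors from reads processed, per the submitters' notes, with fastp and R 3.2.0 against mm10. The aligner, counter, annotation and strandedness are not given in the sources used here, and the methods name DESeq2 for the study's own testing. The deposited FPKM equal the counts divided by a fixed length per gene and the library total. Library totals ran from 36706513 to 40655764 counts. Groups were taken from the time labels. The 9 keratins and all gene lists were chosen with earlier results of these data known.

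Counts were tested in R 4.3.3 with edgeR 4.0.16 (TMM scaling, filterByExpr, 1 quasi-likelihood fit of 28 libraries, 21 residual degrees of freedom), with Benjamini-Hochberg adjustment over the 18107 genes kept of 29068. Genes were called at adjusted p under 0.05. log2 CPM used a prior count of 2. Exact permutation tests used scipy 1.17.1. Named genes are the 9 keratins, the highest and lowest gene of each list at days 3 and 14, and the 3 genes most like each keratin. Some genes that this rule names are not reported here. The lists cover the basal layer and hemidesmosome, desmosome and spinous layer, keratinization, epidermal transcription factors, epithelial surface, bulge and outer root sheath, hair, wound edge and simple epithelial keratins, sebaceous gland, muscle, leukocyte, matrix fibroblast and adipocyte. Levels per coding length and the TATA-like letters were chosen after the data were seen. Alternatives were DESeq2 1.42.0, limma 3.58.1 on log2(FPKM + 1) or + 0.1, other scalings and filters, the 8 libraries of a comparison alone, a replicate block and leaving out single libraries. No 2 libraries of a day were near-identical, since the lowest median chi-square per gene of a pair was 1.47, against 0.455 under counting noise.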

Additional observations from a re-analysis of the deposited data

Results flagged for a closer look

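In 4 of 63 groups of 4 libraries, 1 library lay far from the other 3 by its log2 CPM, where chance alone gives about 3.15 such groups. For Krt5, replicate 4 of day 10 stood at 10.91, above the others at 10.73 to 10.75. For Krt15, replicate 3 of day 14 stood at 9.60, above the others at 9.32 to 9.35. For Krt1, replicate 2 of day 5 stood at 9.13, below the others at 9.27 to 9.29. For Krt78, replicate 2 of day 0 stood at 4.96, below the others at 5.29 to 5.33.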

How the results depend on the processing

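With single libraries left out, 406 of 432 values kept their direction and side of the threshold, and under the other settings 556 of 581 did. Under the study's criteria the lower keratins numbered 5, 2, 2, 2, 0 and 3 at days 3, 5, 7, 10, 12 and 14, and the higher ones 0 at days 7, 10 and 12 and 1 at day 14. In the 3 limma fits (log2(FPKM + 1), log2(FPKM + 0.1), and log2(FPKM + 1) with a mean FPKM of at least 1), 2, 2 and 2 were higher at day 10, 3, 2 and 2 at day 12, and 2, 2 and 2 lower at day 12. Library totals also gave 2 lower at day 12. With at least 10 counts in every library or a mean FPKM of at least 1, Krt2 could not be tested and 1 was higher at day 14. The sign of Krt14 at day 14 (-0.048) turned with upper quartile scaling (0.0091), library totals (0.078), the 8 libraries alone (0.022) and limma (0.20, 0.20 and 0.20). These settings moved the median of all genes by over 0.1 in places: upper quartile to -0.12 at day 3, library totals, limma with 0.1 and filtered limma to 0.11, 0.10 and 0.11 at day 12.

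With 1 library left out, the number called higher ranged from 0 to 1 at day 3, 0 to 2 at day 5, 1 to 2 at day 10, 1 to 2 at day 12 and 2 to 3 at day 14, and the number called lower from 6 to 7 at day 10 and 2 to 5 at day 12. Values that changed sign ranged from -0.13 to 0.29 for Krt14 at day 7, -0.037 to 0.13 for Krt78 at day 7, -0.020 to 0.42 for Krt5 at day 14, -0.19 to 0.27 for Krt14 at day 14, and, among ratios at day 12, -0.10 to 0.0050 for Krt5/Krt14 and -0.15 to 0.33 for Krt10/Krt14. The cause was not tested. The replicate numbers do not pair the libraries: of 84 same-numbered pairs 1 correlated above 0.1 (r from -0.076 to 0.18), and 8 of 28 libraries correlated best with their own number. With the replicate block, 9 of 9 keratins passed the joint test, as without it. Low counts limit Krt2 and Krt19, and the day 0 spread limits Krt5 and Krt14.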
